A study of Bos taurus with 30 samples.

Results

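Small GTPases are molecular switches that are active when they hold GTP and inactive when they hold GDP. Guanine nucleotide exchange factors (GEFs) load them with GTP and GTPase-activating proteins (GAPs) switch them off again. Rab and Arf GTPases direct the budding, transport and docking of vesicles, GTPases such as Cdc42 and Rac1 control the actin cytoskeleton on which white blood cells crawl and engulf particles, sorting nexins route cargo through endosomes, and SNAREs fuse the vesicles with their target membranes. The transcripts of 45 genes with such roles were followed here in peripheral white blood cells (PWBCs) of cattle, out of 27607 genes counted and 13630 genes tested.

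The members were the genes in the printed part of the study's annotation table, 1630 genes in the order of their identifiers, whose description held a word for GTPases, nucleotide exchange, vesicles, sorting nexins or syntaxins. None of the 46 genes found in this way was lost through words for kinases, receptors, transporters and the like. All had a CPM (counts scaled to a common library size, per 1000000 counted fragments) above 1 in 30 of 30 columns, so that no member had to pass a filter through one group alone. One gene, Rap guanine nucleotide exchange factor 6, was left out by the rule because it stands in the study's ontology tables, which were built from genes called on these samples. The descriptions also took in genes whose products are not small GTPases or their regulators, such as EFL1, a GTPase of ribosome maturation, and SPG11, a protein of lysosome renewal.

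Blood was drawn into EDTA tubes from 5 estrus-synchronized crossbred beef heifers, called subjects A to E. The groups compared were blood of the coccygeal vein (in the tail) processed at 1 h, blood of the jugular vein (in the neck) processed at 1 h, and jugular blood kept at 4 °C and processed at 24 h, with 5 libraries in each group and 1 per subject. A further 15 jugular columns, of 3, 6 and 8 h, could not be tied to a single time or subject, and are given as a range and median with no test. PWBCs are a mixture of lymphocytes, monocytes and granulocytes, and all groups came from the same 5 animals.

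Between 12412619 and 19492274 fragments were counted per library in the 15 libraries tied to a subject, so that 3 counts correspond to 0.154 to 0.242 CPM, and the smallest count of any member in them was 23, of RHPN2. The leukocyte markers that could be matched to an identifier were present in all of these libraries: CD79A of B cells at 439 to 696 CPM, the T cell markers CD4 and CD8A at a summed 135 to 388 CPM, and 3 of 4 monocyte markers at a summed 177 to 353 CPM. No marker of the list for neutrophils, platelets or red cells could be matched to an identifier.

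The levels of the 45 genes per length spanned more than 2 orders of magnitude. FPKM (CPM per kilobase of the transcript) was averaged over the 15 libraries and is the scale on which genes are compared with each other. The highest were both GIMAP proteins, GTPases known from the survival of lymphocytes: GIMAP7 with 267 FPKM and GTPase IMAP family member 5 with 123 FPKM. They were followed by the GAP ARHGAP27 with 94.6 FPKM, the retromer partner SNX1 with 68.1 FPKM and ARHGEF2, a microtubule-bound GEF, with 61.6 FPKM. Among the 10 Rab GTPases the range ran from 57.5 FPKM for RAB10, of exocytic traffic, to 1.78 FPKM for RAB30, of the Golgi. The lowest member was RHPN2 with 0.761 FPKM. SNAREs and vesicle proteins lay between 8.27 FPKM (BET1) and 57.3 FPKM (VTI1B). The Arf group, which takes in partners of Arf and Arf-like GTPases, lay between 16.6 FPKM (ARL6IP6) and 60.6 FPKM (ARL6IP4). Both of these are described as interacting proteins of an Arf-like GTPase, not as GTPases. Counting did not use the strand, and reads of the GIMAP genes, a family of similar copies, could have been split between them.

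**Figure D1:**
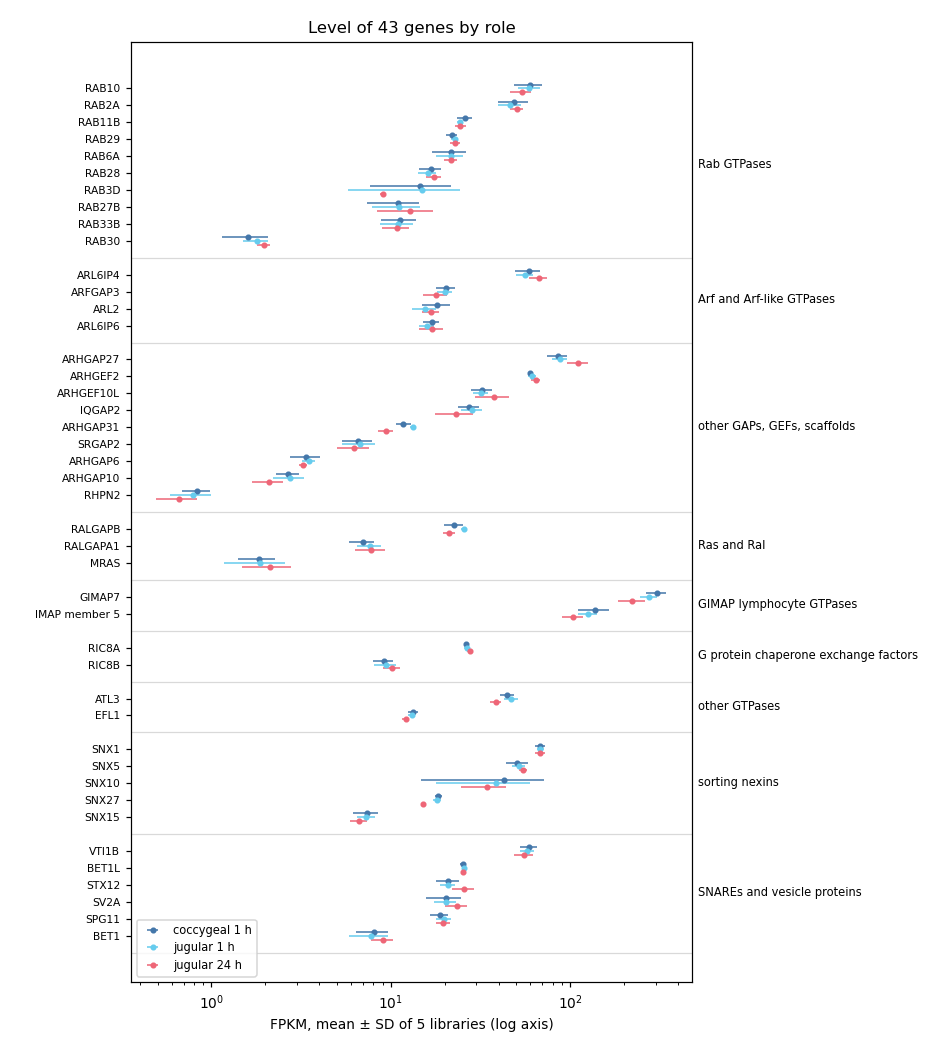
Mean FPKM of 43 of the 45 genes on a log axis, with bars of 1 SD over the 5 libraries of coccygeal blood at 1 h, jugular blood at 1 h and jugular blood at 24 h, ordered by role. GIMAP7 (267 FPKM over all 15 libraries) stands highest and RHPN2 (0.761 FPKM) lowest, and SNX10 and RAB3D have the longest bars at 1 h. The set labelled Arf and Arf-like GTPases takes in partners of these GTPases.

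The main comparison, ‘24 h vs 1 h’ in jugular blood, asked how storage of blood moved transcript abundance. A gene was called with an FDR under 0.05 in both edgeR and DESeq2 and an absolute log2 fold change above 0.5. By this rule 1 of 45 members (2.22%) was called, ARHGAP31, which was lower at 24 h. Over all genes tested the share was 2.62% (1.48% higher and 1.14% lower). The rule for members had itself removed a called gene: Rap guanine nucleotide exchange factor 6 (log2 fold change -0.56, FDR = 0.00131 in edgeR, lower in 5 of 5 subjects), and with it 2 of 46 genes would have been called, 4.35%.

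Smaller shifts were more common. With an FDR under 0.05 in edgeR and no threshold on the fold change, 9 members (20%) had changed, compared with 12.2% of all genes tested. One of them was higher at 24 h (2.22%, against 6.17% of all genes) and 8 were lower (17.8%, against 5.99%). DESeq2 called the same 9 members (10.6% of all genes in DESeq2). Whether the members stand apart from other genes was not tested. The median log2 fold change was -0.01 over the members and 0.01 over all genes, and the median absolute value was 0.14 over the members and 0.13 over all genes. In all 5 subjects 10 members were lower at 24 h (22.2%, against 13.9% of all genes) and 5 were higher (11.1%, against 12.4%). The 24 h and 1 h libraries did not overlap for 6 members that were lower (13.3%, against 2.5%) and for 0 that were higher (0%, against 1.45%). All members exceeded 1 CPM in 30 of 30 columns, whereas a gene tested needed this in only 5 of the 15 libraries. None of these shares was matched for level.

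**Figure D2:**
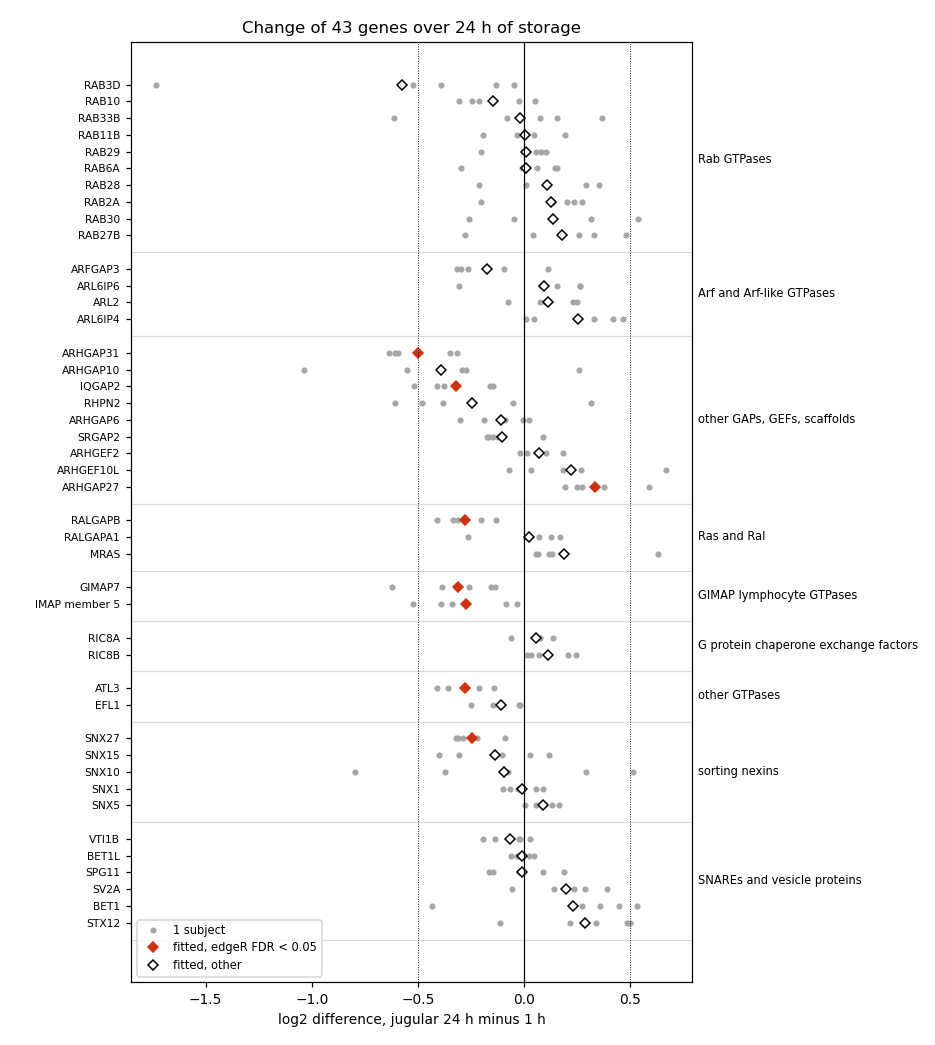
Log2 difference between jugular blood at 24 h and at 1 h for 43 of the 45 genes by role. Grey points are the 5 subjects (CPM with a prior count of 2), diamonds the fold change fitted by edgeR, filled where FDR was under 0.05, and dotted lines mark 0.5 on either side of 0. Of the 8 filled diamonds 7 lie left of 0, and the grey point farthest left is RAB3D of subject A at -1.73. The set labelled Arf and Arf-like GTPases takes in partners of these GTPases.

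The called gene and the member that rose are both GAPs. ARHGAP31 (chromosome 1, bases 64083127 to 64203306 of ARS-UCD1.2), a GAP that switches off Cdc42 and Rac1, was at 72.9, 75.4, 74.2, 71.5 and 76.9 CPM in subjects A to E at 1 h and at 46.9, 49.4, 59.5, 56.0 and 50.9 CPM at 24 h. Every 24 h library was below every 1 h library of the jugular vein. The log2 fold change was -0.50 (SD of the differences between subjects 0.15, n = 5), with FDR = 0.00401 in edgeR and FDR = 3.65e-06 in DESeq2. The fitted value sat at the threshold, and the call was lost with TMM scaling (-0.498), without subject A (-0.467), B (-0.474) or E (-0.478), without the block on subjects (-0.497) and against the coccygeal libraries (-0.328), while FDR in edgeR was between 0.00414 and 0.0308 in each of these. In the 15 columns of 3 to 8 h it ranged from 56.8 to 74.9 CPM with a median of 69.5.

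ARHGAP27, a GAP that also takes part in endocytosis, was the one member that rose. It was at 342, 374, 325, 286 and 342 CPM in subjects A to E at 1 h, and the 24 h libraries of the same subjects held 513, 452, 387, 372 and 392 CPM. The groups overlapped only in that subject D at 24 h stayed just below subject B at 1 h. The log2 fold change was 0.34 (SD 0.15, n = 5) with FDR = 0.0125 in edgeR, and at 3 to 8 h the columns spanned 291 to 430 CPM around a median of 368.

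IQGAP2, a scaffold that ties Rac1 and Cdc42 to actin, was lower at 24 h. Its 1 h values were 153, 158, 203, 195 and 203 CPM in subjects A to E and its 24 h values 107, 119, 182, 151 and 184 CPM, so that the groups overlapped while each subject fell. The fitted log2 fold change was -0.32 (SD 0.16, n = 5) with FDR = 0.0154 in edgeR. ARHGAP10 (log2 fold change -0.39, SD 0.47) and the GEF ARHGEF10L (0.22, SD 0.29) did not pass the test. ARHGEF2, one of the most abundant members, did not pass the test either: it was at 315, 322, 291, 332 and 331 CPM at 1 h compared with 357, 325, 313, 348 and 327 CPM at 24 h (log2 fold change 0.07, SD 0.08, FDR = 0.42 in edgeR).

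Both GIMAP genes were lower at 24 h. GIMAP7 (chromosome 4, bases 112958076 to 112958969) went from 248, 277, 232, 261 and 208 CPM in subjects A to E at 1 h to 161, 232, 178, 238 and 187 CPM at 24 h, a log2 fold change of -0.31 (SD 0.20, n = 5; FDR = 0.0249 in edgeR). GTPase IMAP family member 5, on the same chromosome (bases 113349198 to 113356352), went from 144, 182, 146, 142 and 139 CPM to 114, 139, 102, 139 and 131 CPM, a log2 fold change of -0.27 (SD 0.21, n = 5; FDR = 0.0416 in edgeR). The groups overlapped for GIMAP7 and, by a narrow margin, did not for GTPase IMAP family member 5, for which subjects A, B and C fell furthest and subject D moved least. Some markers of several cell types were lower too, and others were not. For T cells, the summed level of CD4 and CD8A, both named here through tables of genes the study had called, was 279 to 337 CPM at 1 h and 135 to 248 CPM at 24 h, and both were lower. CD14 of monocytes (log2 fold change -0.62), IL1RL1 of eosinophils and mast cells (-1.01) and PRF1 of cytotoxic lymphocytes (-0.32, FDR = 0.0204 in edgeR) were lower as well, the first 2 of them named through the same tables. CD68 (-0.09, FDR = 0.703) and FCGR3A (-0.02, FDR = 0.877) of monocytes did not pass the test in edgeR. Nor did GZMB (-1.47, FDR = 0.172), GZMM (-0.24, FDR = 0.367) and CD244 (-0.14, FDR = 0.346) of cytotoxic lymphocytes. VWF, which the marker list gave under endothelium, was higher (0.68, FDR = 0.0112 in edgeR). Its source in these cell mixtures was not tested. GZMB and VWF were named through the same tables as well. The 3 monocyte markers summed to 202 to 353 CPM at 1 h and 183 to 281 CPM at 24 h. The B cell marker CD79A was at 439 to 559 CPM at 1 h and 477 to 696 CPM at 24 h (log2 fold change 0.18, FDR = 0.184 in edgeR), and the 4 of 7 cytotoxic lymphocyte markers that could be matched summed to 162 to 228 CPM and 120 to 210 CPM. The part of these markers in the change of the GIMAP genes was not tested. In bulk samples, fewer cells of a type and less RNA per cell cannot be told apart.

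In the Arf group, ARFGAP3, a GAP of COPI vesicles (log2 fold change -0.17), ARL6IP6 (0.09), ARL2 (0.11) and ARL6IP4 (0.25) did not pass the test.

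RALGAPB, the beta subunit of the complex that inactivates Ral GTPases, was at 119, 113, 126, 120 and 120 CPM at 1 h and at 94.2, 103, 110, 96.4 and 90.3 CPM at 24 h. The libraries did not overlap (log2 fold change -0.28, SD 0.11, n = 5; FDR = 0.0161 in edgeR). RALGAPA1, a catalytic subunit of such a complex, had a log2 fold change of 0.02 (SD 0.17; FDR = 0.87 in edgeR). The change of RALGAPB depended on the baseline: against the coccygeal libraries, which held less of it, the log2 fold change was -0.09 (FDR = 0.589 in edgeR).

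ATL3, an atlastin that fuses and shapes tubules of the endoplasmic reticulum, was at 83.6, 105, 93.6, 86.5 and 95.5 CPM in the 1 h libraries and at 69.2, 81.6, 80.8, 78.4 and 71.9 CPM in the 24 h libraries. No 24 h library reached a 1 h library (log2 fold change -0.28, SD 0.11, n = 5; FDR = 0.0162 in edgeR). SNX27, a sorting nexin that returns receptors from endosomes to the cell surface, was narrowly spread in both groups, with 117, 115, 117, 120 and 104 CPM at 1 h and 93.4, 94.5, 99.98, 96.6 and 97.99 CPM at 24 h. Its libraries did not overlap either (log2 fold change -0.25, SD 0.09, n = 5; FDR = 0.0212 in edgeR). SNX1, a membrane-bending sorting nexin, was at 140, 138, 127, 141 and 133 CPM at 1 h and at 133, 129, 125, 147 and 142 CPM at 24 h, and these overlapped (log2 fold change -0.01, SD 0.08).

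**Figure D3:**
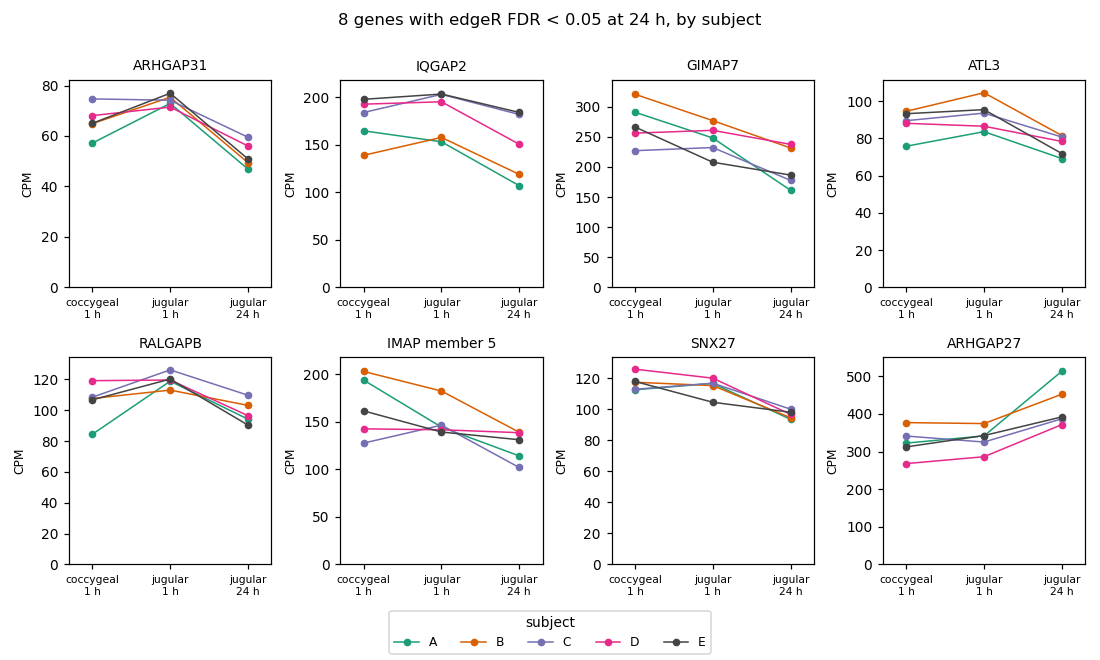
CPM of 8 of the 9 genes with edgeR FDR under 0.05 at 24 h, in coccygeal blood at 1 h, jugular blood at 1 h and jugular blood at 24 h, with 1 line per subject and axes from 0. ARHGAP31 falls from 71.5 to 76.9 CPM at 1 h in the jugular vein to 46.9 to 59.5 CPM at 24 h, and ARHGAP27 rises in each subject. For RALGAPB and ARHGAP31 the coccygeal points lie lower than the jugular points at 1 h in most subjects.

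No Rab GTPase and no SNARE or vesicle protein passed the test in edgeR. Their median log2 fold changes were 0.01 and 0.09. The largest change of all members was nevertheless in a Rab: RAB3D, which guides secretory granules to the plasma membrane and was not named by the fixed rule, had a log2 fold change of -0.58 with FDR = 0.198 in edgeR. Its values were 112, 43.6, 33.7, 43.1 and 35.6 CPM in subjects A to E at 1 h and 33.6, 30.4, 32.6, 32.9 and 32.5 CPM at 24 h. The groups just failed to touch, and the highest library exceeded the lowest by a ratio of 3.32 at 1 h and of 1.11 at 24 h. The subjects' own log2 differences ran from -1.73 (subject A) to -0.05 (subject C), with an SD of 0.68, and without subject A the fold change was -0.28 (FDR = 0.118 in edgeR). In the columns of 3 to 8 h it ranged from 26.2 to 188 CPM, with a median of 36.4. Among the SNAREs and vesicle proteins the highest value was that of STX12, an endosomal syntaxin, at 0.29 (SD 0.25; FDR = 0.0657 in edgeR), and the lowest was -0.07 for VTI1B. The chaperone exchange factors RIC8A and RIC8B, which fold G protein alpha subunits, had fold changes of 0.06 and 0.11 and did not pass the test.

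Other genes of the same machinery were taken from a list by symbol, of which 27 of 65 could be matched and tested. None was called (0%, against 2.62% of all genes), 2 were higher (7.41%, against 6.17%) and 6 lower (22.2%, against 5.99%) with an FDR under 0.05 in edgeR, and the median log2 fold change was -0.06. Lower were DOCK8 (-0.29) and DOCK10 (-0.20), exchange factors for Cdc42 in leukocytes, the retromer subunit VPS35 (-0.28), the COPII coat proteins SEC23A (-0.28) and SEC24D (-0.37), and the clathrin adaptor subunit AP1G1 (-0.33). Higher were VPS52 (0.42), a subunit of the complex that tethers vesicles at the trans-Golgi network, and EHD3 (0.33), a recycling ATPase of endosomes. CDC42 itself had a value of 0.03 (FDR = 0.843 in edgeR).

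The second comparison, ‘coccygeal vs jugular’ at 1 h, asked whether the vein mattered. No member and no other gene tested had an FDR under 0.05 in edgeR (0% of all genes), and DESeq2 called 0 members as well. At an unadjusted p under 0.05 in edgeR there were 4 members (8.89%), compared with 1.91% of all genes tested. RALGAPB had the smallest p of the members. It was at 84.4, 108, 108, 119 and 107 CPM in coccygeal blood of subjects A to E and at 119, 113, 126, 120 and 120 CPM in jugular blood, lower in the coccygeal library of 5 of 5 subjects (log2 difference -0.19, SD 0.19, p = 0.0209 before adjustment in edgeR, FDR = 1.00). Subject A had the largest difference. ARHGAP31 was also lower in coccygeal blood (-0.17, in 4 of 5 subjects), and GIMAP7 (0.15, in 3 of 5 subjects) and ARL2, a GTPase of tubulin folding (0.23), were higher. The difference of ARL2 was the largest of the 45, and the median absolute log2 difference between veins was 0.05 over the members and 0.06 over all genes. A p that misses the threshold does not show that the veins were alike.

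Both comparisons used the jugular libraries of 1 h, so a gene that stood high in them appears lower in coccygeal blood and lower at 24 h. Against the coccygeal libraries as the baseline, 5 of the 9 members kept an FDR under 0.05 in edgeR: 4 were lower and ARHGAP27 was higher. The log2 fold changes were then -0.26 for IQGAP2 (FDR = 0.122), -0.21 for ATL3 (FDR = 0.115) and -0.40 for GTPase IMAP family member 5 (FDR = 0.0544), and that of GIMAP7 grew to -0.46. The count of 9 also fell when a subject was left out, to 5 without A, 4 without B and 5 without E, and to 1, ARHGAP31, when the subject was not in the fit as a block. Over all genes tested the count fell as well. It went from 1658 to 491 against the coccygeal baseline and to 40 without the block. That count is not given here for a subject left out.

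The last comparison asked how far levels differed between the animals. With both tubes of 1 h as the replicates of a subject, 17 members (37.8%) differed between the subjects with an FDR under 0.05 in edgeR, compared with 35.8% of all genes tested. The error in this test is that between 2 tubes of the same animal, and on simulated data with gene-wise dispersions it made more false calls than the FDR allows. The same subject was highest in both veins for 12 of the 17 (26.7% of the members, against 24.9% of all genes). In 5 of these it was subject D (11.1%, against 8.65%) and in 2 it was subject A (4.44%, against 2.94%). Without subject D only 4 members (8.89%) still differed, IQGAP2, SRGAP2, MRAS and SNX10, compared with 13.1% of all genes. Without subject B 10 members did (22.2%, against 29.9% of all genes).

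SNX10, a sorting nexin of endosomes and lysosomes that is known from bone-resorbing osteoclasts, differed most. In coccygeal blood it was at 97.8, 43.9, 84.4, 228 and 83.5 CPM in subjects A to E, and in jugular blood at 95.5, 54.3, 77.6, 187 and 70.1 CPM (F = 75.8, FDR = 2.74e-06 in edgeR). Subject D was 2.95 times the mean of the other subjects in the coccygeal vein and 2.51 times in the jugular vein, and subject B was lowest in both. After 24 h the order had changed, with 73.7, 51.5, 111, 107 and 85.8 CPM: subject D was down to 1.34 times the mean of the others, and its own log2 difference was -0.80, whereas subject C moved by 0.51. Over all subjects the fold change of SNX10 at 24 h was -0.09 (SD 0.52; FDR = 0.793 in edgeR), and 0.09 without subject D.

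RAB33B, a Golgi Rab that also serves autophagosomes, had the same leader. It was at 30.3, 29.8, 31.1, 47.8 and 32.9 CPM in coccygeal blood and at 27.8, 30.1, 31.8, 45.5 and 32.0 CPM in jugular blood at 1 h (F = 13.7, FDR = 0.00214 in edgeR). At 24 h it read 26.3, 33.5, 41.1, 29.7 and 33.7 CPM, so that subject D was no longer highest. A further 3 Rab GTPases, looked at after their values were seen, were highest in subject D in both veins at 1 h: RAB10 (177 and 167 CPM, against means of 125 and 127 CPM in the other subjects), RAB6A of Golgi transport (115 and 110 CPM, against 79.5 and 80.3 CPM) and RAB2A, which acts between the endoplasmic reticulum and the Golgi (107 and 95.4 CPM, against 76.1 and 74.1 CPM). At 24 h subject D was at 141 CPM for RAB10 (mean of the others 117 CPM), 89.5 CPM for RAB6A (85.3 CPM) and 83.0 CPM for RAB2A (85.8 CPM). Without subject D, FDR between the subjects was 0.725 for RAB33B, 0.609 for RAB10, 0.332 for RAB6A and 0.453 for RAB2A in edgeR. The last 3 of these were picked with the high values of subject D known. Without subject D the share of all genes that differed fell as well, from 35.8% to 13.1%. Whether the change at 24 h differed between subjects was tested in edgeR over all 15 libraries, a test added after seeing the data, in which the spread comes from the tubes of 1 h and the single 24 h tube of each subject is assumed to vary like them. No member had an FDR under 0.05 (0.0954% of all genes tested did), and 3 members had an unadjusted p under 0.05 (6.67%, against 8.97% of all genes). They were SNX10 (FDR = 0.116 in edgeR), RAB33B (FDR = 0.196) and ARHGAP10 (FDR = 0.403).

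SRGAP2, a membrane-bending GAP of Rac1, was lowest in the same subject throughout. Coccygeal blood held 45.5, 30.8, 47.6, 52.6 and 50.5 CPM in subjects A to E, jugular blood at 1 h 41.3, 33.3, 46.3, 52.6 and 58.2 CPM, and jugular blood at 24 h 44.01, 30.1, 41.1, 47.0 and 53.4 CPM (F = 13.3 and FDR = 0.00235 in edgeR between subjects at 1 h). This was subject B, at 0.628, 0.671 and 0.649 times the mean of the others, and without it FDR was 0.154 in edgeR. MRAS, a Ras-related GTPase that was likewise looked at afterwards, was highest in subject A in all 3 groups (10.0, 11.8 and 12.3 CPM, against 6.59, 6.31 and 7.44 CPM in the others).

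RAB3D was also highest in subject A at 1 h, with 92.4 CPM in coccygeal and 112 CPM in jugular blood against means of 42.3 and 39.0 CPM in the other subjects (FDR = 0.0316 in edgeR, and 0.677 without subject A). In the other subjects both tubes could differ as much as the animals did: subject B was at 26.4 CPM in the coccygeal and 43.6 CPM in the jugular library, and subject C at 55.0 and 33.7 CPM. Some markers of other cells also differed between the subjects at 1 h. CD68 (FDR = 0.0242), FCGR3A (FDR = 0.00935) and CD8A (FDR = 0.00348) passed the test in edgeR. So did GZMB (FDR = 0.000109), GZMM (FDR = 0.00096) and PRF1 (FDR = 0.00145) of cytotoxic lymphocytes. IL1RL1 of eosinophils and mast cells (FDR = 0.0256) and CD79A of B cells (FDR = 0.0386) passed too. CD14 (FDR = 0.123), CD4 (FDR = 0.152), CD244 (FDR = 0.0874) and VWF (FDR = 0.315) did not. The monocyte markers CD14 (94.3 and 89.5 CPM) and CD68 (55.4 and 67.9 CPM) were highest in subject A in both veins, as RAB3D was. FCGR3A (228 and 207 CPM) and the T cell marker CD8A (74.3 and 68.8 CPM) were highest in subject D. The T cell marker CD4 was lowest there, at 222 and 225 CPM. Its other libraries held 237 to 339 CPM in coccygeal and 234 to 299 CPM in jugular blood. The part of these markers in the levels of RAB3D, SNX10 and the other Rab genes was not tested.

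**Figure D4:**
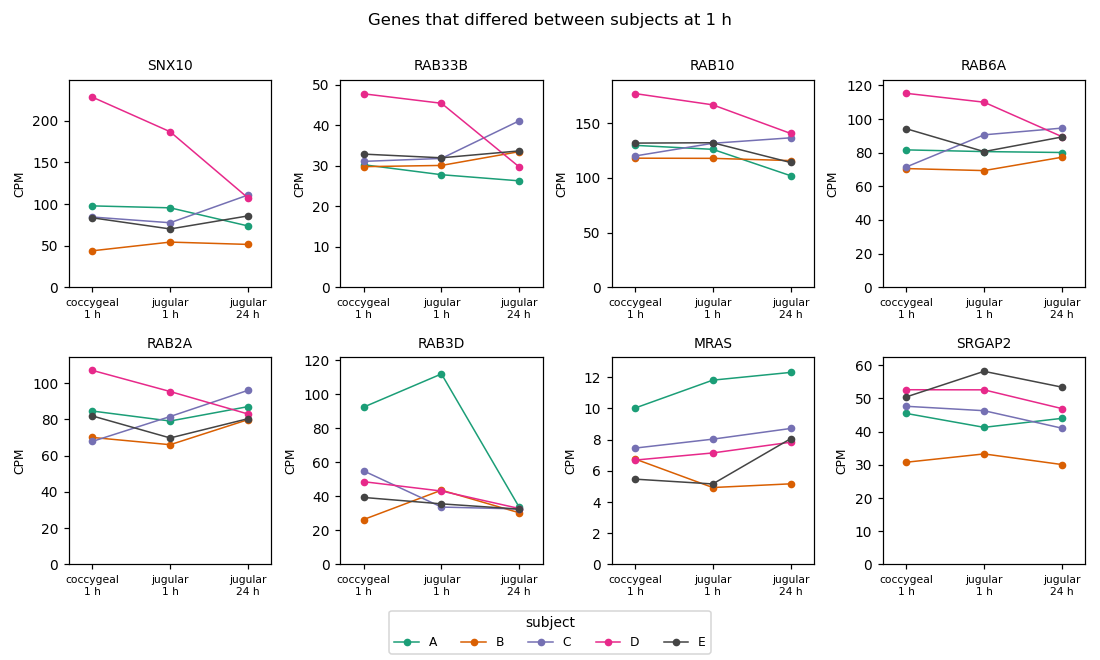
CPM of 8 genes that differed between subjects at 1 h (edgeR FDR under 0.05), in coccygeal blood at 1 h, jugular blood at 1 h and jugular blood at 24 h, with 1 line per subject and axes from 0. Subject D leads SNX10, RAB33B, RAB10, RAB6A and RAB2A in both veins at 1 h, and subject A leads RAB3D (92.4 and 112 CPM) until all subjects lie between 30.4 and 33.6 CPM at 24 h.

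The members were scattered over 19 chromosomes, with ARHGAP6 on an unplaced scaffold. Only 2 pairs lay within 10 kb of each other: BET1L and RIC8A on chromosome 11, with 1661 bases between them and log2 fold changes at 24 h of -0.01 and 0.06, and ARL2 and SNX15 on chromosome 29, with 7282 bases between them and fold changes of 0.11 and -0.14. The 8 members that were lower at 24 h had a median transcript length of 3326 bases and a median level of 34.9 FPKM, compared with 2853 bases and 19.4 FPKM for the 36 that did not pass the test. The spread between subjects, as the median coefficient of variation, was 13.98% in coccygeal blood, 11.4% in jugular blood at 1 h and 11.2% at 24 h for the members, and 16.2%, 15.1% and 13.8% for all genes tested.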

How the data were processed

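RNA of PWBCs from 30 blood samples was sequenced in pairs after a stranded mRNA library preparation. Per the labels and the supplementary code, the authors trimmed adapters with cutadapt 2.8, mapped the pairs with HISAT2 2.2.0 on the ARS-UCD1.2 genome, dropped duplicate pairs, and assigned fragments to Ensembl genes with featureCounts of Subread 2.0.1 without using the strand. They deposited raw counts of 27607 genes with no normalization. The vein, time and subject of 15 columns came from the authors' supplementary code. The other 15 columns are those of 3 to 8 h, known by elimination only, and were described but not tested. The labels' heifer numbers were not joined to subjects A to E.

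Here, 13630 genes were tested, those whose CPM exceeded 1 in at least 5 of these 15 libraries, with edgeR 4.0.16 (quasi-likelihood test, library size as the only scaling, robust, older fitting method) and DESeq2 1.42.0 (Wald test) in R 4.3.3. Each comparison used its 10 libraries with the subject as a block, and p-values were Benjamini-Hochberg adjusted (FDR) over all genes tested. The test between subjects took the 4 subject coefficients together with the vein in the design. For each subject's own fold change, 2 counts were added as a prior. The study fitted all jugular times together. Pairing by subject was checked by the correlation across genes of deviations from the group means, which for libraries of the same subject was 0.54 to 0.67 between 1 h and 24 h and 0.43 to 0.84 between veins. The steps were tested on simulated data, in which the tests between subjects exceeded their nominal FDR when dispersions varied gene by gene.

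Values in each library are given for every called member, 7 others with an FDR under 0.05 in edgeR with one direction in every subject, the 5 of highest FPKM, the one of smallest p between veins, and the 3 of largest F between subjects, 13 members in all. The values of 2 members that count in the totals are not reported here. RAB3D, RAB10, RAB6A, RAB2A and MRAS were named after their values were seen, as were members named among 5 or fewer. The members and lists were chosen with earlier results of these data known. Names, positions and transcript lengths came from annotation columns of the supplementary tables, whose fold changes were not used. Cell type markers named there can come from tables of called genes. None of the RefSeq identifiers given matched the counts (0 matched), and no sequence is shown. The study reported a lower RNA integrity number at 24 h than at 1 h, with similar sequencing coverage along transcripts. RNA integrity was not analysed here, and its part in the changes at 24 h was not tested. Alternatives tried were TMM, each tool alone, no fold threshold, other filters on low counts, no block, the newer quasi-likelihood fit, the coccygeal baseline, all 15 libraries in one fit, and each subject left out.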

Additional observations from a re-analysis of the deposited data

Results flagged for a closer look

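In groups of 5 libraries, 54 of which were looked at for the 18 members named, 5 held a library whose gap to its nearest neighbour was more than 0.71 of the group's range, and chance alone gives about 1 in 20 such groups. Subject D was the highest library in 3 of them: RAB33B at 47.8 CPM in coccygeal blood (next highest 32.9 CPM) and 45.5 CPM in jugular blood at 1 h (next 32.0 CPM), and RAB10 at 177 CPM in coccygeal blood (next 132 CPM). RAB3D stood at 112 CPM in subject A in jugular blood at 1 h, with the next subject at 43.6 CPM. GTPase IMAP family member 5 stood at 182 CPM in subject B in jugular blood at 1 h, with the next at 146 CPM. Members were partly named for such values, and the libraries of one subject share an animal, so these 5 groups are not independent.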

How the results depend on the processing

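The call of ARHGAP31 as the 1 member past both tools and the fold threshold held with either tool alone, with no filter, the filter on 30 columns or the stricter filter, with the newer quasi-likelihood fit and with all 15 libraries in one fit. It became 0 members with TMM, with no replicate block and against the coccygeal baseline, 9 with no fold threshold, and 2 with the gene left out by the rule counted as well, which was added after seeing the data. Leaving out a subject gave 0 to 1. The count of 9 members with an FDR under 0.05 in edgeR at 24 h became 1 with no replicate block and 5 against the coccygeal baseline. It was 4 to 9 with a subject left out, and between 8 and 10 in the other 6 alternatives run. These counts did not always hold the same members. Without subject D the 9 were 3 higher and 6 lower, against 1 higher and 8 lower in the main fit. Over all genes tested, 1658 became 40 with no replicate block and 491 against the coccygeal baseline. Between veins 0 members passed in every alternative run, also unpaired, where no replicate block gave 0. Between subjects 17 members became 4 to 21 with a subject left out (8.89% to 46.7%, against 13.1% to 42.9% of all genes), and 17 to 23 otherwise. The fold changes of the 18 members named were followed through 162 pairs of a member and an alternative. In 8 of these the sign changed, each in a member that had not passed the test. Leaving out a subject, SNX1 ranged from -0.033 to 0.015, SNX10 from -0.249 to 0.089, RAB33B from -0.118 to 0.132 and RAB6A from -0.026 to 0.089. Without the replicate block RAB6A had -0.0015. In 25 of the 162 pairs a member lost its FDR under 0.05 with the same sign, 7 of them with no replicate block. Only 8 of the 18 members had such an FDR in edgeR to lose, so the other pairs could not count here. Of these 8, 1 kept it with no replicate block and 4 against the coccygeal baseline. With a subject left out 3 to 7 kept it, and with TMM or in DESeq2 all 8 did. The causes were not tested. Leaving out a subject removes samples together with that animal's own values, and these cannot be told apart. The counting depth allowed values down to 0.154 to 0.242 CPM, and 5 animals limit the precision of each fold change.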

Other observations

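Among the 15 columns of 3 to 8 h, whose time and subject are not known column by column, SNX10 ranged from 49.5 to 210 CPM with a median of 79.3, and RAB33B from 23.6 to 46.8 CPM with a median of 30.5. The column with the most RAB3D held 188 CPM, above the 112 CPM of the highest library of 1 h, while the median over the columns was 36.4 CPM. ARHGAP31 (median 69.5 CPM) and SNX27 (98.6 to 118 CPM, median 111) lay above their 24 h means of 52.5 and 96.5 CPM in the median column. GIMAP7 ranged from 161 to 265 CPM with a median of 239, and IQGAP2 from 143 to 196 CPM with a median of 177.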
